A study of Mus musculus with 6 samples.

Results

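The 37 genes described here are a hand-listed set of liver enzymes and carriers of the urea cycle and of amino acid breakdown, taken from the count tables by gene symbol. All 37 symbols matched a single entry among the 23282 genes of each table, and all 37 passed the filter on low counts that left 14076 genes for testing. The rule goes by symbol and known function and uses no measured value, although earlier results of these data were known when the genes were listed. The members were read in 7 branches, namely the urea cycle (7 genes), glutamate and alanine nitrogen supply (4), serine, glycine and histidine (8), the aromatic amino acids tyrosine and tryptophan (8), the branched-chain amino acids (3), lysine and proline (3) and the sulphur amino acids (4).

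Liver mRNA was sequenced from 3 liver-specific *Tcf7l2*-knockout mice (KO, *Alb-Cre;Tcf7l2* f/f) and from 3 wild-type littermates (WT, *Tcf7l2* f/f). TCF7L2 is the transcription factor that, with β-catenin, carries the Wnt signal to genes. Both groups were male C57BL/6 mice that carried *Tcf7l2* alleles floxed at exon 5, were labelled as 12 weeks old, and had been fasted for 24 h before 24 h of refeeding with normal chow. Only the KO mice carried Cre, driven by the albumin promoter, so recombination was directed at hepatocytes while the other liver cells kept the gene. The genotypes were compared in the refed state alone, and they differed in Cre as well as in *Tcf7l2*, so the parts of the 2 cannot be told apart. The KO libraries are those labelled TCF 7-2, 7-3 and 8-3, and the WT libraries those labelled WT 7-2, 8-1 and 8-3, and values per library follow that order.

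The liver disposes of nitrogen from amino acids by linking transaminases and deaminases to the urea cycle, which turns ammonia and aspartate nitrogen into urea. Periportal hepatocytes, which meet portal blood first, hold most of the urea cycle, the liver-type glutaminase and the enzymes of histidine and serine breakdown. Pericentral hepatocytes next to the central vein, where Wnt signalling is high, instead make glutamine from the ammonia that is left, with glutamine synthetase. Many of these enzymes are induced by glucagon and glucocorticoids in fasting and fall on feeding.

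No member passed the test across all genes. With edgeR's quasi-likelihood test, 0 of 37 members had a Benjamini-Hochberg adjusted *p* under 0.05, where 0.448% of all tested genes did (10 higher and 53 lower in KO). DESeq2, which called 3.08% of genes, called *Gls2* and *Uroc1*, both higher in KO, that is 5.41% of the members. At an unadjusted edgeR *p* under 0.05, 3 members were higher (*Gls2*, *Uroc1* and *Ftcd*, 8.11% of the members against 6.7% of all genes) and 1 was lower (*Bckdhb*, 2.7% against 6.76%). Of the 37 log2 fold changes, 24 were above 0 (64.9%, against 47.9% of all genes) and the median was 0.080, against −0.017 over all tested genes. They ran from −0.35 for *Prodh* to 0.74 for *Gls2*. In bulk liver RNA, fewer cells of a type and less RNA per cell cannot be told apart.

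The intervals bound what these libraries could have missed, with the scaling between libraries taken as given. For 36 of the 37 members (97.3%, against 69.3% of all tested genes) the 95% interval of the fold change lay within 2-fold in either direction, and the exception was *Gls2*. Every member had at least 221 counts in each library, where the filter asked for a minimum count of 10. The part of abundance in these shares was not tested. At a log2 difference over 1.5 in quantile-normalised counts with a log2 level of at least 5, 0 members were past the limit in either direction, where 51 genes were higher and 107 lower, and the largest difference of a member was 0.81. The 3 KO values all lay above the 3 WT values for 7 members (*Cps1*, *Ass1*, *Gls2*, *Uroc1*, *Ftcd*, *Kynu* and *Aldh4a1*), which is 18.9% of the members beside 10.2% of all genes. They all lay below for *Bckdhb* alone, 2.7% beside 9.08%.

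**Figure D1:**
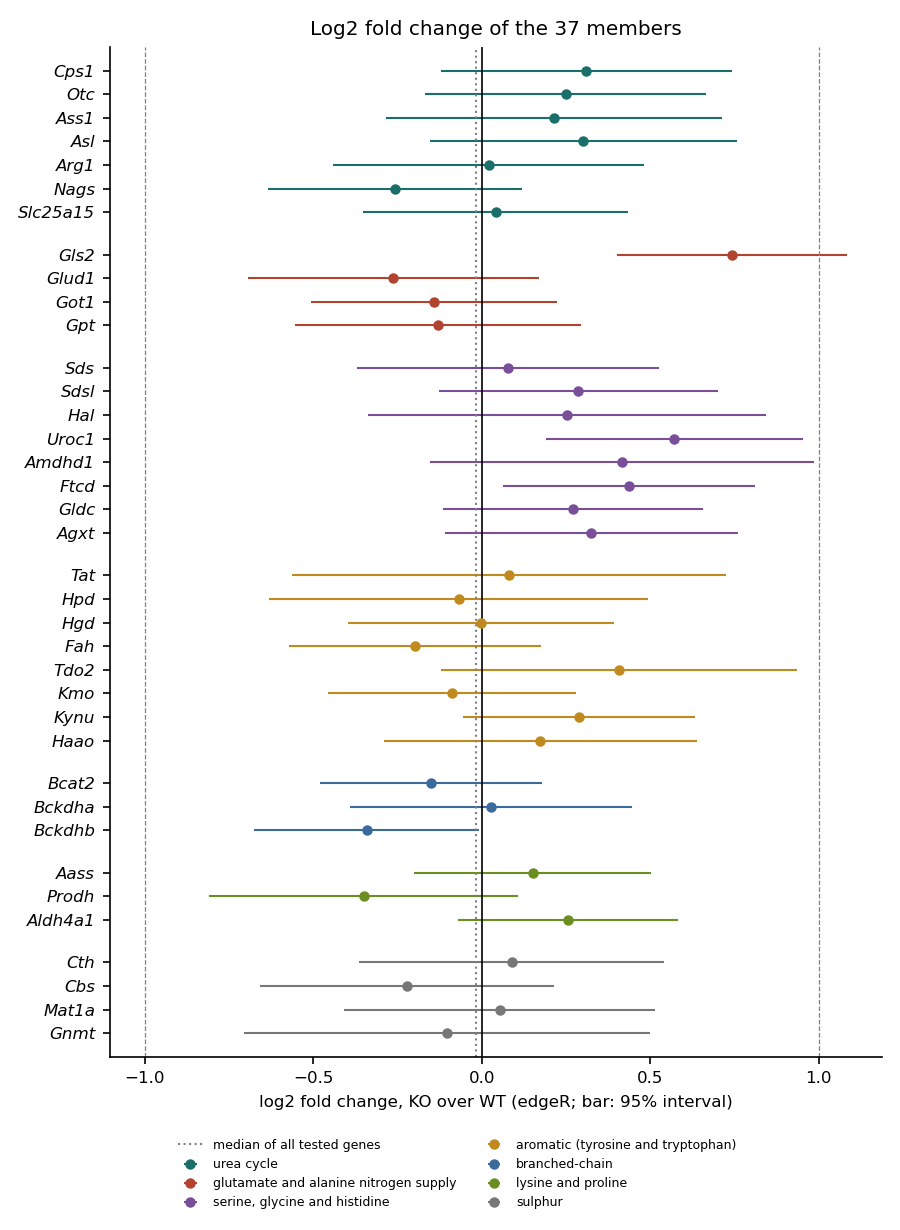
Log2 fold change of KO over WT for the 37 members, by branch (points, edgeR; bars, 95% interval; dotted line, median of all tested genes at −0.017; dashed lines, 2-fold). The interval lies wholly above 0 for *Gls2*, *Uroc1* and *Ftcd* and wholly below 0 for *Bckdhb*, and 36 of the 37 intervals lie between the dashed lines.

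The libraries held 60619938 to 68760956 counts in KO and 67299258 to 133384586 counts in WT, and 20 genes named Mup, which encode major urinary proteins, took 18.5% to 28.7% of the counts in KO and 31.7% to 54.3% in WT. Counts scaled to library size (CPM) were therefore corrected with TMM factors, which spanned 1.10 to 1.40 in KO and 0.63 to 0.99 in WT. The WT 8-1 library had the largest total, the largest Mup share and the lowest factor, and it had the lowest of the 6 values for 24 of the 37 members. Scaled CPM of *Tcf7l2* was 3.31, 2.74 and 3.33 in KO against 4.88, 6.13 and 6.85 in WT, so every KO library was below every WT library (log2 fold change −0.93, SE 0.19, edgeR adjusted *p* = 0.0856, DESeq2 adjusted *p* = 0.00283). A summary over the gene includes reads outside the floxed exon and from cells without Cre. The 6 hepatocyte markers that checked the label liver were abundant, with sums of 42410 to 59192 CPM in KO and 46874 to 52690 CPM in WT. They include the members *Tat* and *Hpd*, and most of the sum was *Alb*, with means of 35866 CPM in KO and 35298 CPM in WT.

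Per kb of transcript, the members differed widely in level, and their order was much the same in both genotypes. *Ass1* was highest, at 1442 CPM per kb in KO and 1243 CPM per kb in WT. It was followed by *Hpd* (744 in KO and 781 in WT), *Arg1* (671 in KO and 661 in WT), *Gnmt* (435 in KO and 467 in WT) and *Tat* (412 in KO and 389.6 in WT, all in CPM per kb). *Sdsl* was lowest, with 3.67 CPM per kb in KO and 3.01 in WT, below *Bckdhb*, *Nags*, *Bcat2* and *Gldc*, which all stood between 7.20 and 9.20 CPM per kb in both groups. Between the genotypes, 4 of the 37 members differed by more than 3 places in this order, with *Gls2* and *Hal* placed higher in KO and *Prodh* and *Cbs* placed lower in KO. Even the least abundant member, *Sdsl*, had at least 221 counts in every library.

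**Figure D2:**
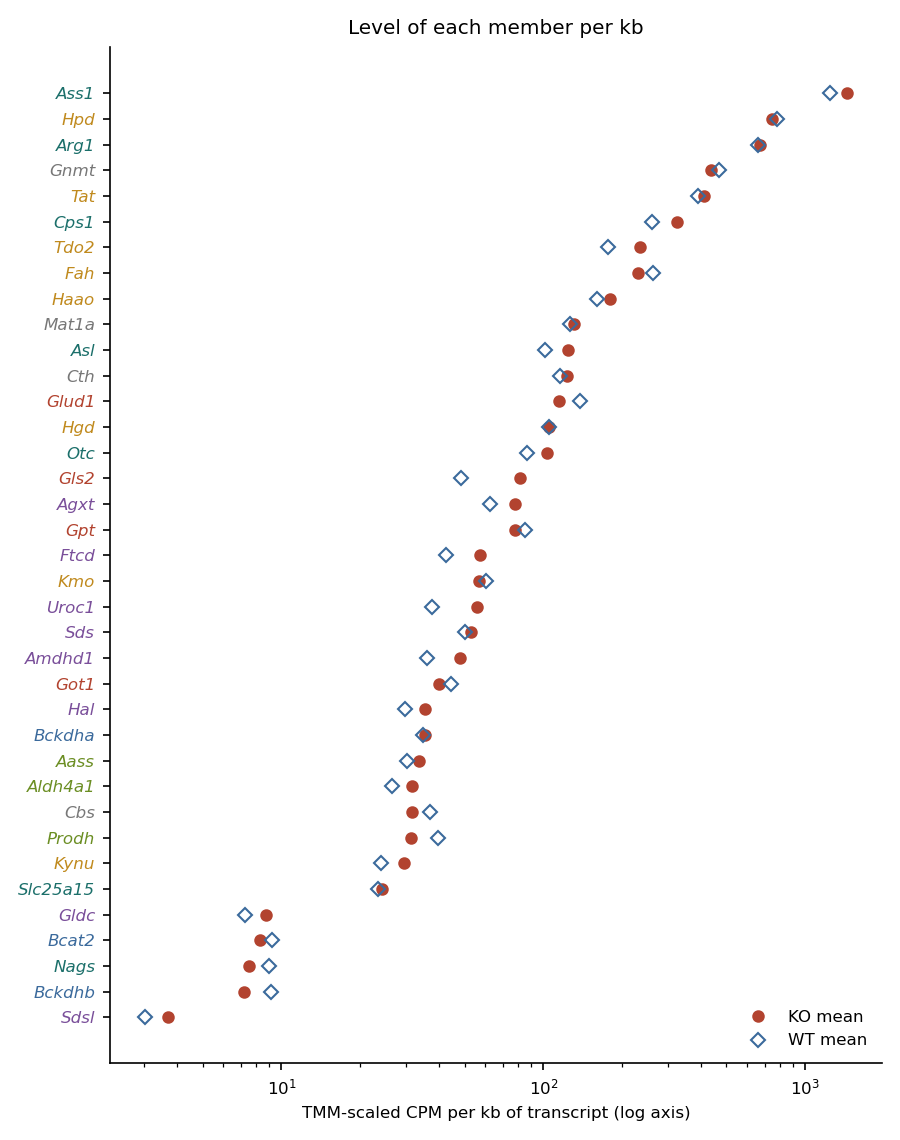
Mean TMM-scaled CPM per kb of canonical transcript for each member (log axis; circles, KO mean; diamonds, WT mean; n = 3 each), ordered by the KO level and with names coloured by branch. *Ass1* stands at the top with 1442 in KO and 1243 in WT, and the widest gap between circle and diamond is that of *Gls2* (81.1 in KO and 48.5 in WT).

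In the urea cycle, 6 of 7 log2 fold changes were above 0 and 0 passed the test, with a branch median of 0.21 that was 0.057 without WT 8-1 and 0.082 without KO 7-3. *Cps1* (NM_001080809, chr1:67122426-67231267, mm10), the carbamoyl phosphate synthetase that commits ammonia to the cycle, had 1791, 1819 and 1775 CPM in the KO livers, against 1298, 1639 and 1408 CPM in the WT livers. The 3 KO livers were nearly alike and all stood above the WT livers, of which WT 8-1 was closest to them. The log2 fold change was 0.31 (SE 0.19, 95% interval −0.12 to 0.74, edgeR adjusted *p* = 0.509). *Ass1* (NM_007494, chr2:31470270-31520670), argininosuccinate synthetase, had 2529, 2527 and 2559.6 CPM in the KO livers, against 2453, 1662 and 2452 CPM in the WT livers. Here the groups did not overlap, but WT 7-2 and WT 8-3 were close to the KO livers and WT 8-1 stood far below, and the log2 fold change of 0.21 (SE 0.22, adjusted *p* = 0.698) shrank to 0.057 without WT 8-1. *Asl*, which splits argininosuccinate, had 344, 344 and 306 CPM in the KO livers, against 307, 198 and 301 CPM in the WT livers. KO 8-3 was level with the highest WT liver and WT 8-1 was again far below the others. The log2 fold change of *Asl* was 0.30 with all libraries and 0.13 without WT 8-1.

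The remaining urea cycle genes also overlapped between the groups. *Otc*, ornithine transcarbamylase on the X chromosome, had 219.6, 297 and 214 CPM in the KO livers, against 211, 221 and 183 CPM in the WT livers, so that its fold change (0.25, SE 0.19) leaned on KO 7-3. *Arg1*, the arginase that releases urea, averaged 1081 ± 175 CPM in KO and 1065 ± 137 CPM in WT (SD, n = 3 each), a log2 fold change of 0.021 with an interval of −0.44 to 0.48. The ornithine carrier *Slc25a15* was as close, at 0.041 (−0.35 to 0.43). *Nags*, which makes the allosteric activator of carbamoyl phosphate synthetase, was the only member of the branch below 0, at 15.2 ± 1.16 CPM in KO and 18.2 ± 3.56 CPM in WT (log2 fold change −0.26, interval −0.63 to 0.12). Summed over the branch, the level was 5857 to 6337 CPM in KO and 4732 to 5647 CPM in WT.

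Among the genes that supply the cycle with nitrogen, *Gls2* stood apart from the other 3. *Gls2* (NM_001285779, chr10:128194635-128210004) encodes the liver-type glutaminase, which frees ammonia from glutamine inside periportal mitochondria. It had 205, 209 and 221 CPM in the KO livers, against 124, 119 and 137 CPM in the WT livers. Each group was tight, with a mean of 211 ± 8.08 CPM in KO and 126 ± 9.25 CPM in WT (SD, n = 3 each), and the lowest KO liver stood well above the highest WT liver. The fold change was 1.67 (log2 0.74, SE 0.15, 95% interval 0.40 to 1.08), with an adjusted *p* over all genes of 0.0877 by edgeR and 0.000171 by DESeq2. The log2 fold change stayed between 0.71 and 0.81 over 16 alternative analyses, all but scaling by library size alone, and was 0.71 without WT 8-1. The adjusted *p* was less steady. It was 0.151 by limma on quantile-normalised counts, and by edgeR it ran from 0.124 (without WT 7-2) to 0.288 (without KO 8-3) with single libraries left out.

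The other 3 genes of this branch lay below 0 and did not pass the test. *Glud1*, glutamate dehydrogenase, had 446, 464 and 439 CPM in the KO livers, against 627, 427 and 565 CPM in the WT livers, where the KO livers were alike and sat between WT 8-1 and the other WT livers (log2 fold change −0.26, interval −0.69 to 0.17). The cytosolic aspartate transaminase *Got1* gave −0.14 (−0.51 to 0.22) and the alanine transaminase *Gpt* −0.13 (−0.56 to 0.29). The level of *Gls2* can also be read against its opposite number within each library, which needs no scaling between libraries. The log2 ratio of *Gls2* to *Glul*, the glutamine synthetase gene, was 2.12, 2.13 and 2.00 in KO and −1.47, −1.02 and −1.11 in WT, so that *Gls2* counts exceeded *Glul* counts in all KO livers and were fewer in all WT livers. The means differed by 3.29, which joins a fold change of 0.74 for *Gls2* with one of −2.55 for *Glul*. The log2 ratio of *Gls2* to *Cps1* differed by 0.43 (−3.09 ± 0.067 in KO and −3.51 ± 0.24 in WT, SD, n = 3 each).

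**Figure D3:**
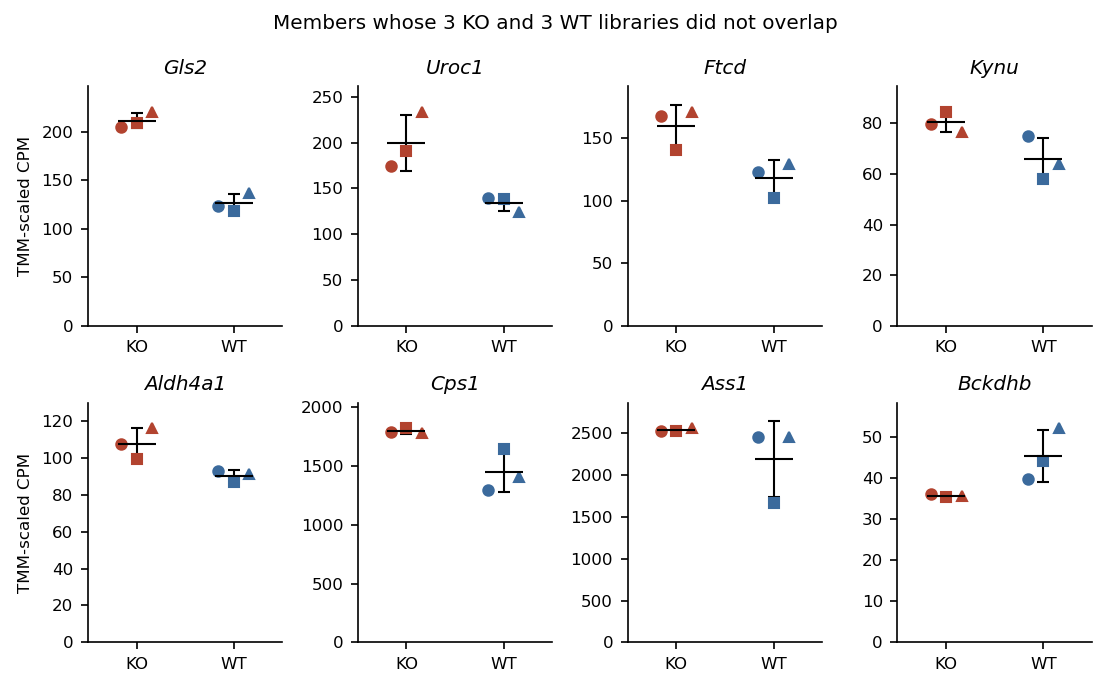
TMM-scaled CPM per library (points; circle, square and triangle are libraries 7-2, 7-3 and 8-3 in KO and 7-2, 8-1 and 8-3 in WT; bars, mean and SD, n = 3 each) for the 8 members whose groups did not overlap. *Gls2* has the widest gap, with KO at 205 to 221 and WT at 119 to 137, while *Bckdhb* is the one lower in KO, at 35.4 to 36.2 against 39.7 to 52.2 in WT.

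All 8 members of serine, glycine and histidine breakdown had a log2 fold change above 0, with a median of 0.31, and 0 passed edgeR's test. Of 16 other tested genes of these pathways that are not members, 7 were above 0, with a median of −0.038. The 4 histidine enzymes, which act in turn to convert histidine to glutamate, had a median of 0.43. *Uroc1* (NM_144940, chr6:90333239-90364551), urocanate hydratase, had 174, 190.5 and 234 CPM in the KO livers, against 139, 139 and 125 CPM in the WT livers. The groups did not overlap, although KO 8-3 stood far above KO 7-2, and the log2 fold change was 0.57 (SE 0.17, interval 0.19 to 0.95, adjusted *p* = 0.199 by edgeR and 0.0365 by DESeq2). *Ftcd* (NM_080845, chr10:76575648-76590338), which passes the formimino group of histidine to tetrahydrofolate, had 168, 140.2 and 171 CPM in the KO livers, against 123, 102 and 129 CPM in the WT livers. Again no WT liver reached the lowest KO liver (log2 fold change 0.44, interval 0.063 to 0.81, edgeR adjusted *p* = 0.302).

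The other histidine enzymes overlapped between the groups. *Hal*, the histidine ammonia-lyase that opens the pathway, had 230.2, 141 and 193 CPM in the KO livers, against 197, 103 and 173 CPM in the WT livers. *Amdhd1*, which hydrolyses imidazolone propionate, had 139, 95.1 and 115 CPM in the KO livers, against 113, 56.0 and 93.2 CPM in the WT livers. In both genes KO 7-3 was the lowest KO liver and WT 8-1 by far the lowest of all 6. Without WT 8-1, the log2 fold change was 0.030 for *Hal* (0.25 with it) and 0.18 for *Amdhd1* (0.42 with it), and the median of the 4 histidine enzymes was 0.27. *Hal* (chr10:93488768-93516761, plus strand) and *Amdhd1* (chr10:93523338-93540111, minus strand) are neighbours on chromosome 10 with their 3′ ends facing each other.

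The DNA just before the start of the 4 histidine genes is shown because their transcripts leaned the same way and because TCF7L2 binds DNA through the core CTTTGAT or CTTTGAA. Sequences are from RefSeq (GRCm38.p6, the mm10 build), 5′ to 3′ on the strand of the gene, and end at the outermost RefSeq start of the gene. They cover chr6:90333039-90333238 (plus) for *Uroc1*, chr10:76575398-76575647 (plus) for *Ftcd*, chr10:93488518-93488767 (plus) for *Hal* and chr10:93540112-93540283 (minus) for *Amdhd1*. Capitals mark, on either strand, the shared core CTTTGA, the shorter form TGACG of the cAMP response element, the C/EBP pattern TTGCNNAA and the TATA box TATAAA.
Uroc1: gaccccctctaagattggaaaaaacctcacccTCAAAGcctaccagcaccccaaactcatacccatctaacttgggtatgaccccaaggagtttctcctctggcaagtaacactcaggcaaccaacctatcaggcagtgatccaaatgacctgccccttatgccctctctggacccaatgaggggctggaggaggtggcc
Ftcd: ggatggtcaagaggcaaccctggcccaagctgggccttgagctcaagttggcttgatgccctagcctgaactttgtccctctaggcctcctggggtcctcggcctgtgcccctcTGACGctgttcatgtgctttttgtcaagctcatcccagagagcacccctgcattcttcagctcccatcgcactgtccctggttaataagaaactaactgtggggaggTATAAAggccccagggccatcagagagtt
Hal: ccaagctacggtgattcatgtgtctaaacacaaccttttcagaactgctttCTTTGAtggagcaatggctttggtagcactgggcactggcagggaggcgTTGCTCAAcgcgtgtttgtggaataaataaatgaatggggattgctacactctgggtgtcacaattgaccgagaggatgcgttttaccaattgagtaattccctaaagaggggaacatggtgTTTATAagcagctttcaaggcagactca
Amdhd1: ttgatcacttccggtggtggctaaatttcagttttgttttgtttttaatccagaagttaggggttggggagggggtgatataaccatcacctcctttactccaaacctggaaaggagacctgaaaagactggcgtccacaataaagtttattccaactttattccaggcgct
*Hal* held CTTTGAT from 199 bases before the start, a match to TTGCNNAA from 150 bases and TATAAA on the opposite strand from 28 bases. *Uroc1* held only CTTTGA, read on the opposite strand as TCAAAG, and *Ftcd* held TGACG and a TATAAA that began 29 bases before the start. *Amdhd1* held none of the patterns in the stretch shown. Over the 300-base windows (250 bases before to 50 after the start) that the RefSeq table gives for 27 members, CTTTGA was present in 7 (*Aass*, *Agxt*, *Haao*, *Hal*, *Kmo*, *Nags* and *Uroc1*), where 16.0% of all 32851 windows held it, and it includes both longer cores. The longer CTTTGAT was in 3 (*Haao*, *Hal* and *Nags*, 3.73% of all windows) and CTTTGAA in *Aass* alone (5.14%). The full cAMP response element TGACGTCA and the full C/EBP palindrome TTGCGCAA were in 0 members, and in 1.79% and 0.183% of all windows, whereas TATAAA was in 4 (*Ftcd*, *Hal*, *Hgd* and *Tdo2*, 13.6%). TGACG was in *Aass*, *Ftcd* and *Nags* (20.8% of all windows), and TTGCNNAA was in *Aass*, *Hal* and *Hgd* (10.8%). Matches to these shorter patterns include those to the full ones. The 27 members had 30 windows, and a member was counted if any of its windows held the pattern. The percentages are shares of single windows, so the 2 are not on the same basis. These are matches of letters, and binding was not measured here.

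Of the serine and glycine genes, *Agxt*, the peroxisomal transaminase that removes glyoxylate, had 132, 105 and 127 CPM in the KO livers, against 100.1, 74.7 and 116 CPM in the WT livers (log2 fold change 0.33, interval −0.11 to 0.76). *Gldc*, the decarboxylase of the glycine cleavage system, averaged 67.3 ± 12.5 CPM in KO and 55.8 ± 5.23 CPM in WT (SD, n = 3 each), with KO 8-3 highest at 81.4 CPM. *Sds*, serine dehydratase, a gluconeogenic gene of the fasted liver, averaged 64.5 ± 3.16 CPM in KO and 61.1 ± 17.2 CPM in WT, and its log2 fold change was 0.078 (−0.37 to 0.53). Its neighbour and paralogue *Sdsl* gave 0.29 (−0.13 to 0.70) at the lowest level of the set. The summed level of the branch was 802 to 987 CPM in KO and 584 to 783 CPM in WT, so the summed values did not overlap. Neither did those of the urea cycle, and how often such sums separate in other gene lists was not tested.

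The aromatic branch divided evenly, with 4 genes above and 4 below 0 and a median of 0.039. Tyrosine breakdown, from *Tat*, the glucocorticoid-induced transaminase, through *Hpd* and *Hgd* to *Fah*, had intervals on both sides of 0 in all 4 genes. *Tat* varied most among the KO livers, with 722, 1377 and 843 CPM in the KO livers, against 908, 696 and 1179.9 CPM in the WT livers. KO 7-3 alone was above all WT livers, and the log2 fold change of 0.080 had an interval of −0.56 to 0.72. *Hpd* gave −0.069 (−0.63 to 0.49), *Hgd* −0.0018 (−0.40 to 0.39) and *Fah* −0.20 (−0.57 to 0.18). *Hgd* is entered in the tables under a non-coding accession, NR_027778.

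On the tryptophan side, 3 of 4 genes were above 0 and 0 passed the test. *Tdo2*, the dioxygenase that opens the kynurenine pathway, had 673, 944 and 898 CPM in the KO livers, against 819, 508 and 567 CPM in the WT livers. KO 7-2 lay among the WT livers (log2 fold change 0.41, SE 0.24, adjusted *p* = 0.48). *Kynu* (NM_001289593, chr2:43555258-43683048), kynureninase, had 79.7, 84.6 and 76.8 CPM in the KO livers, against 75.0, 58.1 and 64.1 CPM in the WT livers, with no overlap but with WT 7-2 just under the lowest KO liver, and its log2 fold change came to 0.29 (interval −0.055 to 0.63, adjusted *p* = 0.446). *Kmo*, the mono-oxygenase between them, averaged 154 ± 2.30 CPM in KO and 164 ± 23.5 CPM in WT (log2 fold change −0.088). *Haao*, which acts next towards quinolinate and NAD, gave 0.17 with all libraries and 0.0049 without WT 8-1.

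In the branched-chain branch, *Bckdhb* (NM_001305935, chr9:83925111-84124240), the E1β subunit of the branched-chain ketoacid dehydrogenase, had 36.2, 35.4 and 35.8 CPM in the KO livers, against 39.7, 44.2 and 52.2 CPM in the WT livers. The KO livers were within 1 CPM of each other and below all WT livers, and the log2 fold change was −0.34 (SE 0.15, interval −0.68 to −0.0091, edgeR adjusted *p* = 0.36). Its partner in the same E1 heterotetramer, *Bckdha*, averaged 67.4 ± 5.96 CPM in KO and 66.2 ± 15.3 CPM in WT, a log2 fold change of 0.026 (−0.39 to 0.45). The mitochondrial transaminase *Bcat2*, which is low in hepatocytes and high in muscle, gave −0.15 (−0.48 to 0.18). The difference between *Bckdhb* and *Bckdha* was not tested.

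For lysine and proline, *Aldh4a1* (NM_175438, chr4:139622871-139649691), which completes proline breakdown to glutamate, had 108, 99.3 and 116 CPM in the KO livers, against 92.7, 86.6 and 91.1 CPM in the WT livers. The groups did not overlap (log2 fold change 0.26, SE 0.15, adjusted *p* = 0.474). *Prodh*, the step before it, had 76.7, 69.9 and 76.5 CPM in the KO livers, against 120.0, 68.2 and 96.5 CPM in the WT livers and the lowest fold change of the set, −0.35 (SE 0.20, adjusted *p* = 0.482). The KO livers were alike and lay between WT 8-1 and the other WT livers, and without WT 8-1 the log2 fold change was −0.53. *Aass*, which opens lysine breakdown, gave 0.15 (−0.20 to 0.50).

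The sulphur genes had intervals on both sides of 0, with 2 genes above and 2 below it. *Mat1a*, which makes S-adenosylmethionine in hepatocytes, averaged 467 ± 27.8 CPM in KO and 450.1 ± 101 CPM in WT (log2 fold change 0.054). *Gnmt*, which spends it on glycine, averaged 457 ± 64.2 CPM in KO and 491 ± 170.5 CPM in WT (log2 fold change −0.10), with WT 8-1 at 297 CPM against 618 and 558 CPM in the other WT livers. *Cth* gave 0.089 (−0.36 to 0.54) and *Cbs*, the step before it in transsulphuration, −0.22 (−0.66 to 0.21). The branch median was −0.024, the nearest to 0 of the 7.

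Variation between the WT livers was larger than between the KO livers for most members. The coefficient of variation was larger in WT for 28 of the 37 members, with a median of 8.66% in KO and 19.0% in WT. The members above the WT mean numbered 23, 23 and 21 in the KO livers, against 26, 8 and 29 in the WT livers. The low count was that of WT 8-1, where the members' median log2 value over the WT mean was −0.21.

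**Figure D4:**
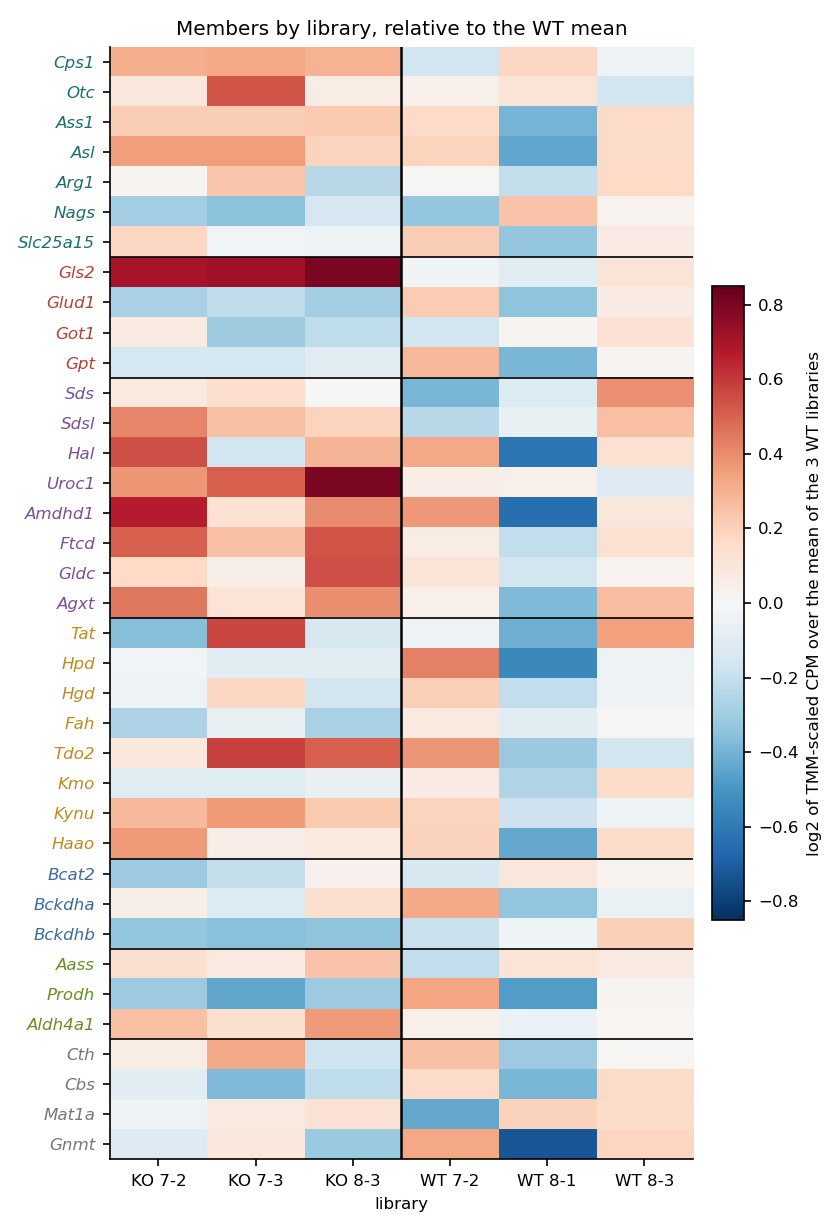
Log2 of TMM-scaled CPM over the mean of the 3 WT libraries for each member (down the page, in branches, names coloured by branch) and library (KO left, WT right; red, above the WT mean; blue, below it). *Gls2* is among several members, such as *Cps1*, *Uroc1* and *Ftcd*, that are red in all 3 KO livers. WT 8-1 is the lowest of the 6 libraries for 24 of the 37 members.

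Leaving out WT 8-1 lowered 29 of the 37 log2 fold changes and raised 8. Then 19 of 37 were above 0, where 24 were with all libraries, and the median over the members was 0.0049, against 0.080 with all libraries. *Gls2* (0.71), *Uroc1* (0.60), *Ftcd* (0.35), *Cps1* (0.42) and *Bckdhb* (−0.35) kept their direction, as did all 8 serine, glycine and histidine genes. Of those 8, *Sds* (0.078 with all libraries) fell to −0.077 when another library was left out. The share of members above 0 thus depended on WT 8-1. Whether its high Mup share and total bear on the members' low values was not tested.

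**Figure D5:**
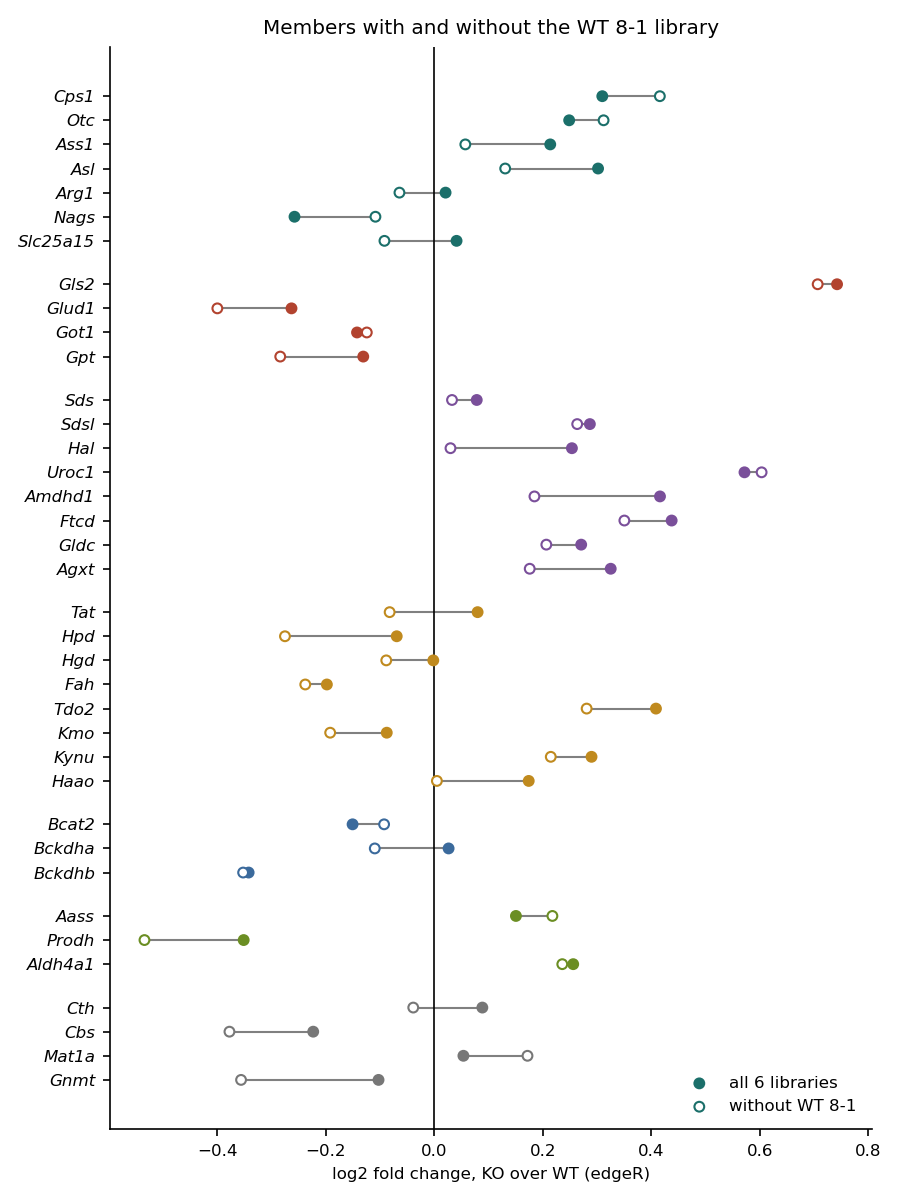
Log2 fold change of KO over WT for each member with all 6 libraries (filled) and without WT 8-1 (open), by branch. *Gls2* stands at 0.74 with all libraries and 0.71 without WT 8-1, *Hal* at 0.25 and 0.030, and 5 members (*Arg1*, *Slc25a15*, *Tat*, *Bckdha* and *Cth*) cross 0.

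The other genes of the same pathways were read from a list of 101, of which 97 were tested. Among them 0 were higher and 4 lower by edgeR's adjusted *p*, which called 0.448% of all tested genes in either direction. Before adjustment, 9 rises and 6 falls reached 0.05 (9.28% and 6.19% of the list, beside 6.7% and 6.76% of all genes). The 4 genes lower by adjusted *p* are known from pericentral hepatocytes. *Oat*, ornithine aminotransferase, had 3.72, 6.31 and 3.60 CPM in the KO livers, against 127, 159.7 and 162 CPM in the WT livers (log2 fold change −5.04, adjusted *p* = 2.75e-05), and *Glul* had 47.1, 47.7 and 55.1 CPM in the KO livers, against 343, 241 and 296 CPM in the WT livers (−2.55, adjusted *p* = 0.000257). *Slc1a2*, a glutamate transporter, fell by 2.54 on the log2 scale (adjusted *p* = 5.78e-05). *Rhbg*, an ammonium transporter, stood at 0, 0.211 and 0.279 CPM in KO against 4.62, 5.76 and 4.66 CPM in WT, where the KO values rest on 0, 16 and 24 counts (adjusted *p* = 0.00943). No KO liver overlapped a WT liver in any of the 4.

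The companions nearest to the threshold beyond these were in the ammonia and branched-chain groups. *Asns*, asparagine synthetase, had 2.17, 3.52 and 0.894 CPM in the KO livers, against 4.41, 8.08 and 10.6 CPM in the WT livers (log2 fold change −1.81, SE 0.45, adjusted *p* = 0.14). *Slc25a13*, the carrier that brings aspartate to argininosuccinate synthetase, had 77.8, 78.9 and 88.0 CPM in the KO livers, against 64.5, 51.2 and 56.4 CPM in the WT livers (0.51, SE 0.15, adjusted *p* = 0.203), and *Aspg*, an asparaginase, gave 0.48 (adjusted *p* = 0.218). Of the branched-chain companions, which are mostly enzymes downstream of the dehydrogenase, 15 of 18 tested were above 0, with a median of 0.15 and 0 called. The smallest *p* there belonged to *Acadsb* (0.42, edgeR adjusted *p* = 0.221), *Mmut* (0.43, adjusted *p* = 0.256) and *Aldh6a1* (0.36, adjusted *p* = 0.325). Among aromatic companions, *Kyat1* (−0.33), *Afmid* (0.36) and *Acmsd* (−0.44) came first, among lysine and proline companions *Dhtkd1* (0.52), *Hoga1* (0.27) and *Aldh7a1* (0.073), among sulphur companions *Adi1* (0.37), *Sqor* (0.34) and *Tst* (−0.33), and among those of serine, glycine and histidine *Shmt1* (0.27), *Grhpr* (−0.27) and *Dld* (0.16). These values are log2 fold changes, and 0 of the 12 genes passed the adjusted test.

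Read by liver zone, the 8 members listed as periportal all had a log2 fold change above 0, with a median of 0.28, and the other 29 had a median of 0.041. The other 29 also held genes of the urea cycle and of histidine and serine breakdown, described above as largely periportal. These were *Nags* (−0.26), *Slc25a15* (0.041), *Otc* (0.25), *Sdsl* (0.29), *Amdhd1* (0.42) and *Ftcd* (0.44). Without WT 8-1, chosen as a check after the data were seen, *Arg1* lay below 0 and the other 7 above it, and the medians were 0.094 for the 8 and −0.088 for the other 29. The count above 0 was also 7 of 8 without KO 7-3 and without WT 7-2, and the median of the other 29 was −0.046 without KO 7-3. Of the 8, 0 were called by edgeR and 2 by DESeq2 (*Gls2* and *Uroc1*), and 4 had KO values that all lay above the WT values, which 10.2% of all genes had. The 8 periportal genes outside amino acid metabolism had 4 log2 fold changes above 0 and a median of 0.086, or −0.028 without WT 8-1 and −0.0046 without KO 7-3. Of these, 0 were called by edgeR and 1 by DESeq2, *Cyp2f2*, a cytochrome P450 named after its values were seen, with 996, 1032 and 979.9 CPM in the KO livers, against 724, 502 and 579 CPM in the WT livers (log2 fold change 0.74, DESeq2 adjusted *p* = 0.0039). In this list, 1 gene had KO values all above the WT values (*Cyp2f2*) and 1 had them all below. The latter, *Ctsc*, also named after its values were seen, had a log2 fold change of −0.56 (DESeq2 adjusted *p* = 0.0813). The difference between the lists was not tested. The pericentral markers were lower in KO in 11 of 11 genes, and edgeR called 9 of them. Of all tested genes it called 0.448% in either direction. The pericentral markers had a median of −2.34 and a summed level of 740.0 to 922 CPM in KO and 2217 to 3149 CPM in WT.

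Summed markers of stellate, sinusoidal endothelial and Kupffer cells did not overlap between the groups. The 7 stellate cell markers summed to 58.4 to 64.1 CPM in KO and 30.2 to 41.2 CPM in WT, with 5 of 7 above 0 and 3 called higher by DESeq2. Of all tested genes, 47.9% were above 0, and DESeq2 called 3.08% in either direction. Much of the stellate sum came from *Dcn*, which averaged 31.2 CPM in KO and 15.8 CPM in WT. The log2 fold changes of *Des* (−0.090) and *Pdgfrb* (−0.086) were just below 0, and these genes were named after their values were seen. The 6 sinusoidal endothelial markers were all above 0 (48.1 to 56.1 CPM in KO and 40.5 to 45.6 CPM in WT), and 6 of the 7 Kupffer cell and macrophage markers were below 0 (48.8 to 57.2 CPM in KO and 61.2 to 69.5 CPM in WT). The 5 cholangiocyte markers summed to 27.8 to 33.7 CPM in KO and 29.4 to 52.8 CPM in WT, the 3 red cell markers to 206 to 231 CPM in KO and 201 to 353 CPM in WT, and the lymphocyte and neutrophil markers to under 4 CPM in every library. All these sums are small beside those of the members (13231 to 14326 CPM in KO and 10509 to 13569 CPM in WT), and their part in the members' values was not tested.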

How the data were processed

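Liver RNA of 3 KO and 3 WT mice was sequenced (NEBNext Ultra II Directional kit), and each library was taken as 1 mouse, n = 3 per group. The authors deposited raw counts per gene, made with Bedtools 2.25.0 from unique and multiple alignments, so genes with near-identical copies may share reads. The submitters' processing notes name TopHat and mm10, with neither aligner version nor annotation given in the sources used here. The deposited counts are from before the quantile normalisation (edgeR 3.20.1, R 3.4.4) of the paper's methods. No libraries were copies of each other (smallest chi-square per degree of freedom 199).

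The counts of KO and WT were compared with the quasi-likelihood test of edgeR 4.0.16 (R 4.3.3, limma 3.58.1), using TMM factors and the default filterByExpr (a minimum count of 10 and a minimum total of 15). *p* values were adjusted by Benjamini-Hochberg over 14076 genes and called under 0.05. The fit was also run on simulated counts with a common dispersion for all genes and changes of at least 2-fold. That simulation does not cover changes as small as those of the members. The SE is the log2 fold change over the square root of *F*. The biological coefficient of variation was 23.9%. Levels per kb use the canonical transcript length of GENCODE vM39, and gene coordinates are RefSeq GRCm38.p6 (mm10).

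The members and lists were chosen with earlier results of these data known. The rule for named genes took all 37 members, *Tcf7l2*, companions called by edgeR and up to 3 per branch with the smallest *p*. Values per library were given for members called by edgeR or DESeq2, members whose groups did not overlap and the 8 with the smallest *p*, and those of *Otc*, *Asl*, *Glud1*, *Hal*, *Amdhd1*, *Agxt*, *Tat*, *Asns* and *Slc25a13* were added after the values were seen. Those of *Tcf7l2*, *Oat*, *Glul*, *Rhbg*, *Nr3c1* and *Cyp2f2*, and some of *Gnmt* and *Gldc*, were also printed outside the rule for values per library. The lists were companions by branch, regulators, pericentral and periportal genes, and markers of hepatocytes, sinusoidal endothelial, Kupffer, stellate, cholangiocyte, lymphocyte, neutrophil and red cells.

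The alternatives were upper-quartile or RLE factors, no factors (library sizes alone), TMM factors without the Mup genes and *Rn45s*, quantile-normalised log2(count + 1) with limma, DESeq2 1.42.0, limma-voom, no filter, a minimum mean log2 normalised count of 5, the omission of single libraries, and a replicate block on the leading number or on the full label.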

Additional observations from a re-analysis of the deposited data

How the results depend on the processing

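Of 629 log2 fold changes of members under 17 alternatives, 572 kept their direction and their side of the adjusted threshold of 0.05, 7 passed it only there and 50 changed sign. Library sizes alone raised the median of all genes to 0.61. With them, 2936 genes were higher and 88 lower, 5 members were called higher (*Cps1*, *Gls2*, *Sdsl*, *Uroc1* and *Ftcd*) and all 37 were above 0. The medians were then 0.71 over all members, 0.80 for the urea cycle, 0.48 for nitrogen supply, 0.93 for serine, glycine and histidine, 0.61 for the aromatic, 0.49 for the branched-chain, 0.80 for the lysine and proline and 0.55 for the sulphur branch, and the members that changed sign were *Nags* (0.41), *Glud1* (0.32), *Got1* (0.51), *Gpt* (0.45), *Hpd* (0.49), *Hgd* (0.58), *Fah* (0.40), *Kmo* (0.51), *Bcat2* (0.49), *Bckdhb* (0.29), *Prodh* (0.22), *Cbs* (0.37) and *Gnmt* (0.44). DESeq2 called 194 genes higher and 239 lower and 2 members higher (*Gls2* and *Uroc1*), limma-voom 6 genes higher, the fit with no filter 23 higher, and quantile-normalised counts 3 higher and 29 lower with a lysine and proline median of 0.24. Outside library sizes alone and DESeq2, 0 members were called, with a lowest adjusted *p* of 0.0724 in *Gls2* (no filter). *Hgd* changed sign with RLE factors (0.00078), TMM factors without the Mup genes and *Rn45s* (0.0017), DESeq2 (0.00080), limma-voom (0.00035) and no filter (0.0039), and with quantile-normalised counts *Hpd* (0.10), *Hgd* (0.080), *Kmo* (0.0074) and *Gnmt* (0.075) did. The deviations of same-labelled KO and WT libraries from their group means had correlations of 0.055 for 7-2 and −0.019 for 8-3. Differently labelled pairs ran from −0.20 to 0.19. With so few libraries, these correlations cannot settle whether the labels mark a pairing. A replicate block on the leading number gave 6 genes higher, 33 lower and 0 members called, a lysine and proline median of 0.23 and opposite signs for *Arg1* (−0.052), *Slc25a15* (−0.027), *Bckdha* (−0.012) and *Cth* (−0.036). A replicate block on the full label, in 4 libraries, gave 33 genes lower and 0 members called, medians of 0.053 (urea cycle), −0.19 (aromatic) and 0.25 (lysine and proline) and opposite signs for *Arg1* (−0.20), *Slc25a15* (−0.071), *Tat* (−0.41), *Bckdha* (−0.038) and *Cth* (−0.18). With each library left out in turn, 3 to 18 genes were higher and 21 to 69 lower, 0 members were called, the urea cycle median ran from 0.057 to 0.24 the lysine and proline median from 0.060 to 0.22 and, tried after the data were seen, that of the periportal members from 0.094 to 0.36, and the members that changed sign ranged from −0.092 to 0.16 (*Slc25a15*), −0.10 to 0.13 (*Arg1*), −0.25 to 0.29 (*Tat*), −0.046 to 0.24 (*Cth*), −0.11 to 0.22 (*Bckdha*), −0.077 to 0.32 (*Sds*), −0.12 to 0.17 (*Mat1a*), −0.10 to 0.12 (*Hgd*), −0.28 to 0.040 (*Gpt*), −0.28 to 0.21 (*Hpd*) and −0.36 to 0.10 (*Gnmt*). The cause of these changes was not tested, other than that library sizes alone shift all genes. Searching the 250 bases before the start instead of the 300-base window moved a member count for 1 pattern, TGACG, which was then in 2 members in place of 3.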

Other observations

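Regulators of amino acid breakdown were read from a list of 12 genes, of which 5 had a log2 fold change above 0 in KO, 0 were called by edgeR or DESeq2 and 1 was higher at an unadjusted *p* under 0.05, a share of 8.33% near the 6.7% of all tested genes. That gene, *Nr3c1*, the glucocorticoid receptor, had 25.1, 21.6 and 24.6 CPM in the KO livers, against 16.8, 17.6 and 20.2 CPM in the WT livers, with a log2 fold change of 0.38 (SE 0.14, edgeR adjusted *p* = 0.282). The C/EBP factors gave 0.42 for *Cebpa* (95% interval −0.16 to 1.01) and −0.34 for *Cebpb* (−0.79 to 0.12).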
